A study of Mus musculus with 12 samples.

Results

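The sirtuins are a family of NAD+-dependent protein deacylases, and their transcripts were followed here in the hippocampus of naturally aged mice. The 7 members were taken by symbol, Sirt1 to Sirt7, from a table of 27833 genes, and all 7 were listed and passed the filter on low values. Each sirtuin removes acetyl or related acyl groups from lysines and consumes NAD+ in doing so, which ties the family to the energy state of the cell. SIRT1, SIRT6 and SIRT7 are mainly nuclear, SIRT2 is mainly cytoplasmic and is rich in myelinating oligodendrocytes, and SIRT3, SIRT4 and SIRT5 reside in mitochondria. The study gave pyrroloquinoline quinone (PQQ, a redox cofactor) to aged mice and examined SIRT1 and the mitochondrial carrier UCP2.

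All mice were wild-type C57BL/6J males aged 20 months and received their treatment by oral gavage for 14 days. The CON group received saline (3 libraries), the PQQ-L group PQQ at 5 mg/kg/day (5 libraries) and the PQQ-H group PQQ at 10 mg/kg/day (4 libraries). Bulk RNA of the hippocampus was sequenced, and 29654553 to 38179496 reads per library fell on genes. The values are FPKM, fragments scaled to gene length and library total, so comparisons between genes rest on the gene lengths used. The labels do not say which mouse gave which library, so the spread between libraries is taken as the error, and the p-values measure that spread alone. Below, a difference at the low dose is PQQ-L vs. CON and one at the high dose is PQQ-H vs. CON. Both use the same 3 CON libraries, so they are not independent.

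The libraries were not uniform in tissue. In CON 1, CON 3, PQQ-H 1 and PQQ-H 2, the 13 striatal markers (such as Drd1) summed to between 1432 and 3580 FPKM, whereas they summed to between 50.4 and 213 FPKM in the other 8 libraries. The 9 markers of hippocampal neurons (such as Prox1 and Neurod6) went the other way, with 37.8 to 111.3 FPKM in those 4 libraries and 194.5 to 550.1 FPKM in the other 8. The 4 libraries are called striatum-rich below, and they made up 2 of 3 CON, 0 of 5 PQQ-L and 2 of 4 PQQ-H libraries. They go against the labelled tissue, so the log2FC of each sirtuin and the median of each gene list in the comparisons with CON are also given without them. That fit keeps 1 CON library. The 16 choroid plexus markers summed to 70.3 to 202.1 FPKM in CON, 10.5 to 18.7 FPKM in PQQ-L and 5.63 to 20.9 FPKM in PQQ-H, with 7 of the 16 at 0 in at least 1 library. In bulk RNA, fewer cells of a type and less RNA per cell cannot be told apart.

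The stretches upstream of Sirt1 and Sirt2 are shown because these are the members whose fitted differences were furthest from 0. Both come from RefSeq (GRCm38.p6) and end before the first exon at the start RefSeq gives. For Sirt1 that start lies inside the GENCODE M21 span given below, since the longest transcript of that annotation begins further upstream. The Sirt1 stretch lies at chr10:63339051-63339285 on the minus strand and the Sirt2 stretch at chr7:28766641-28766734 on the plus strand, where annotated exons of Sirt2 and of the neighboring gene Nfkbib were left out. Capitals mark the E-box CACGTG and the GC box GGGCGG, the latter on either strand.
Sirt1: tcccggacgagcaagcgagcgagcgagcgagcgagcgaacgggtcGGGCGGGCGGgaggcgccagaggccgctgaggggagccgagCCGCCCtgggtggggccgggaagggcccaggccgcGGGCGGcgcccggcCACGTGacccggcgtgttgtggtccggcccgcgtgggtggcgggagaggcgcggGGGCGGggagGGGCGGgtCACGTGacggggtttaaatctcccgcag
Sirt2: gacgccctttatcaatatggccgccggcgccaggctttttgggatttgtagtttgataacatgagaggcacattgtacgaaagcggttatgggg
In its 250-base promoter window, which runs into the first exon, Sirt1 was 79.2% G and C against a median of 52.4% over 32817 mouse promoters. It held 2 copies of the E-box, which 6.02% of those promoters carry, and 6 copies of the GC box (overlapping copies counted), which 32.7% carry. The 250-base window of Sirt2 was 50% G and C and held no E-box, 1 GC box and 2 copies of the CCAAT box (CCAAT on either strand, in 33.8% of promoters). Annotated exon bases, left out of the print, make up 15 of the 250 for Sirt1 and 156 for Sirt2. The GC box and both copies of the CCAAT box of Sirt2 lie among its left-out exon bases. These matches describe letters in the windows and were not tested as binding sites.

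The members are spread over 5 chromosomes of the GRCm38 build (GENCODE M21), all as protein-coding genes. On the minus strand, Sirt1 spans chr10:63319005-63381704, Sirt3 spans chr7:140863666-140882309 and Sirt4 spans chr5:115478010-115484725. Sirt6 (chr10:81621785-81627797) and Sirt7 (chr11:120618372-120625240) are also on the minus strand. On the plus strand, Sirt2 spans chr7:28766735-28788661 and Sirt5 spans chr13:43365496-43395203. Sirt2 shares 42 exonic bases with Nfkbib on the opposite strand, whose log2FC was -0.26 in PQQ-L vs. CON (limma adjusted p = 0.246).

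In FPKM, Sirt2 was the highest member, followed by Sirt3, and these mRNAs made up most of the family sum. Sirt2 averaged 54.2 ± 11.6 FPKM (SD, n = 12) and Sirt3 averaged 39.1 ± 3.73 FPKM (SD, n = 12). Sirt7 followed at 12.2 ± 1.42 FPKM, Sirt6 at 4.10 ± 0.333 FPKM, Sirt1 at 3.22 ± 0.378 FPKM, Sirt4 at 2.99 ± 0.138 FPKM and Sirt5 at 2.44 ± 0.223 FPKM (SD, n = 12 each). Summed over the family, the level was 105.9 to 141.6 FPKM per library, of which Sirt2 supplied 37.4% to 54.7%. The lengths behind these FPKM were 1601 bases for Sirt3 and 1870 for Sirt7, beside 5973 and 5148 exonic bases in GENCODE M21. For Sirt4 the length was 3425 beside 2398 exonic bases, and for Sirt6 it was 2781 beside 2785. Other lengths could therefore change the order and the shares.

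The order of the levels held within libraries with 2 exceptions. Sirt2 lay above Sirt3 in 11 of 12 libraries. Sirt1 lay above Sirt4 in 8 of 12, with a mean log2 ratio of 0.10 ± 0.19 (SD, n = 12). With the groups pooled, Sirt1 and Sirt4 thus did not differ beyond their spread. The libraries in which Sirt1 lay below Sirt4 were CON 1, CON 2, CON 3 and PQQ-H 1, so that spread includes differences between groups. All other neighbors in the order kept their places in 12 of 12 libraries. Even the lowest member, Sirt5, lay above 63.7% of the genes listed, and Sirt2 lay above 95.8%.

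**Figure D1:**
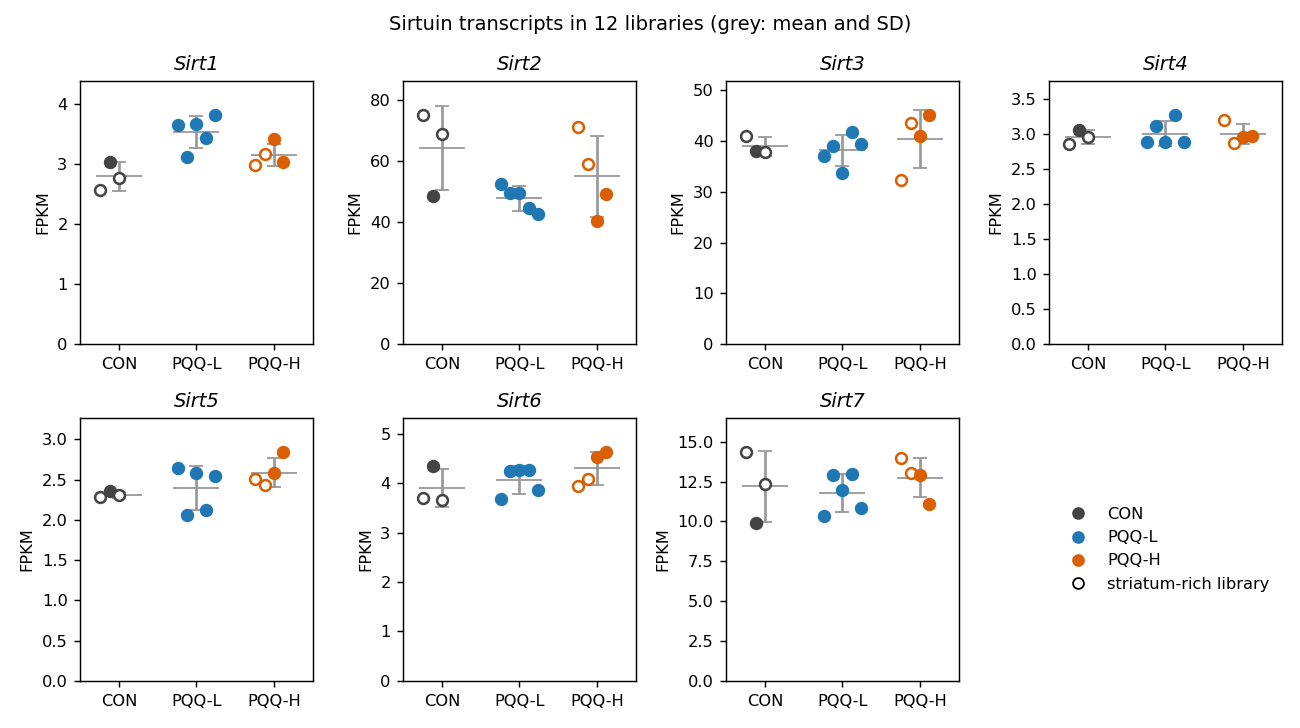
FPKM of the 7 sirtuins (vertical axis, from 0, a separate scale for each gene) in the 12 libraries (horizontal axis, by group), with the group mean and SD in grey and open circles for the 4 striatum-rich libraries. The 5 PQQ-L libraries lie between 3.11 and 3.81 FPKM for Sirt1, above the CON libraries at 2.57 to 3.04 FPKM, and the 4 open circles are the 4 highest values of Sirt2.

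Sirt1, the nuclear deacetylase on which the study centers, was higher in PQQ-L than in CON without passing the test. Its level was 2.57, 3.04 and 2.77 FPKM in CON 1 to 3. In PQQ-L 1 to 5 it was 3.65, 3.11, 3.67, 3.44 and 3.81 FPKM. In PQQ-H 1 to 4 it was 2.99, 3.17, 3.41 and 3.04 FPKM. All 5 PQQ-L libraries lay above all 3 CON libraries, while PQQ-H overlapped CON, as PQQ-H 1 lay below CON 2. The reads behind these values were 353 to 363 per library in CON, 465 to 514 in PQQ-L and 402 to 470 in PQQ-H.

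The fitted difference of Sirt1 in PQQ-L vs. CON was a log2FC of 0.33 (SE 0.0946, 95% interval 0.12 to 0.54, limma adjusted p = 0.173), on the scale of log2(FPKM + 0.1). As a fold this was 1.26 (95% interval 1.09 to 1.45). Of the 13796 genes tested, 2.82% had a smaller p in this comparison. In PQQ-H vs. CON the log2FC of Sirt1 was 0.17 (95% interval -0.05 to 0.39, limma adjusted p = 0.642), and in PQQ-H vs. PQQ-L it was -0.16 (95% interval -0.35 to 0.03, limma adjusted p = 0.580).

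Sirt1 levels were also set against tissue content. They ranged from 2.57 to 3.17 FPKM in the 4 striatum-rich libraries and from 3.04 to 3.81 FPKM in the other 8, which overlap. This split is mixed with dose, as all 5 PQQ-L libraries are among the other 8. Within PQQ-H, the striatum-rich libraries 1 and 2 held 2.99 and 3.17 FPKM, and libraries 3 and 4 held 3.41 and 3.04 FPKM. Without the 4 striatum-rich libraries, 1 CON library was left, so the spread of CON could not be estimated. The log2FC of Sirt1 at the low dose was then 0.21. At the high dose it was 0.08 without them and 0.20 among the 4 striatum-rich libraries alone. The part of tissue content in these values was not tested further, and the choroid plexus signal, which was higher in every CON library than in any treated library, cannot be told apart from treatment. With the choroid plexus markers held constant, the log2FC at the low dose was 0.35. In that fit 0 of 13796 genes passed limma's adjusted p at the low dose, so its test could not decide.

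Sirt2, the cytoplasmic deacetylase of tubulin, was the member with the widest spread between libraries. Its level was 74.9, 48.6 and 68.7 FPKM in CON 1 to 3. In PQQ-L 1 to 5 it was 52.4, 49.5, 49.6, 44.5 and 42.5 FPKM. In PQQ-H 1 to 4 it was 71.1, 58.9, 40.3 and 49.3 FPKM. CON 2 fell inside the range of PQQ-L, so the groups overlapped, and PQQ-H spanned both.

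The log2FC of Sirt2 was -0.41 at the low dose (SE 0.180, 95% interval -0.80 to -0.01, limma adjusted p = 0.240). It was -0.23 at the high dose (95% interval -0.64 to 0.18, limma adjusted p = 0.762), running from -0.42 (without CON 2) to -0.09 (without PQQ-H 3) as single libraries were left out, and 0.18 in PQQ-H vs. PQQ-L (95% interval -0.19 to 0.54, limma adjusted p = 0.676). The 4 striatum-rich libraries held 58.9 to 74.9 FPKM of Sirt2 and the other 8 held 40.3 to 52.4 FPKM, with no overlap. Without the 4 libraries the log2FC at the low dose was -0.03 (limma adjusted p = 0.991), and at the high dose it was -0.13 (limma adjusted p = 0.794). Among the 4 alone, the log2FC at the high dose was -0.15.

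Sirt2 followed the oligodendrocyte markers across libraries. The 12 markers, among them the myelin genes Mog and Mag, summed to 871.0 to 1930 FPKM in CON, 759.0 to 1230 FPKM in PQQ-L and 709.7 to 1829 FPKM in PQQ-H, with none at 0 in any library. Over 12 libraries, the log2 level of Sirt2 and the mean log2 level of these markers gave Pearson's r = 0.972 and Spearman's rho = 0.972. For each, the permutation p was 1e-05, the smallest that 100000 resamples can give, and 3e-05 when adjusted over the 3 relations computed. Without the 2 libraries farthest from the median marker level, r was 0.940 (permutation p = 0.00014, n = 10). Without the 4 striatum-rich libraries r was 0.856 (exact permutation p = 0.00437, n = 8), and within the 9 PQQ-treated libraries it was 0.956 (exact permutation p = 0.00016). Within the 7 libraries whose names open with L, r was 0.974 (exact permutation p = 0.00119), and too few names open with R for a value. Holding the oligodendrocyte level constant in the fit left a log2FC of Sirt2 of -0.12 at the low dose (limma adjusted p = 0.609) and -0.03 at the high dose (limma adjusted p = 0.937).

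**Figure D2:**
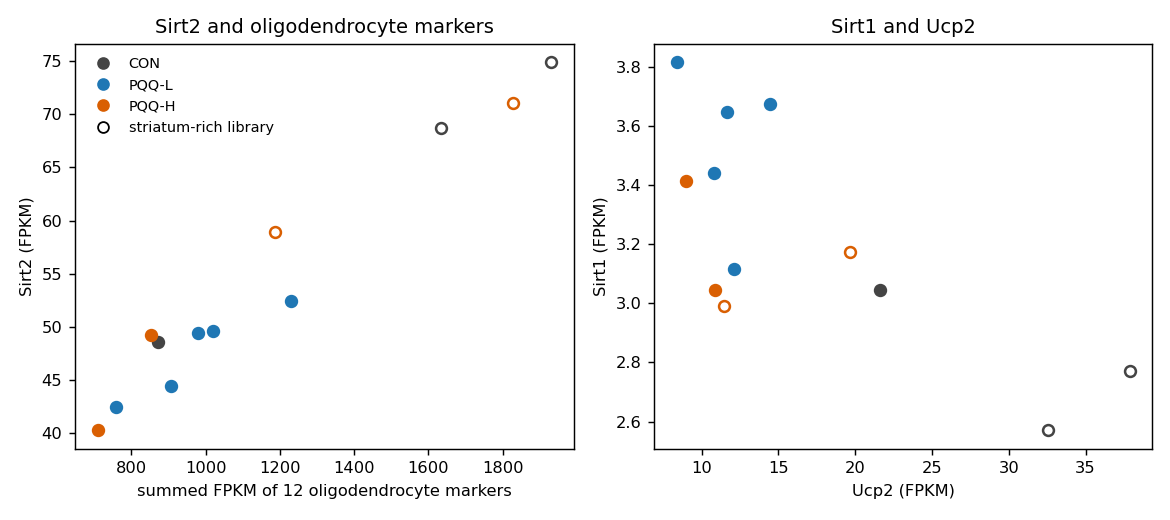
Left, Sirt2 (FPKM) against the summed FPKM of 12 oligodendrocyte markers; right, Sirt1 (FPKM) against Ucp2 (FPKM), with 1 point per library, colors for the groups and open circles for the 4 striatum-rich libraries (neither axis starts at 0). Sirt2 rises with the marker sum from 40.3 to 74.9 FPKM in all groups alike, while on the right the 3 CON libraries are the highest in Ucp2, at 21.6 to 37.9 FPKM.

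Sirt3, the main mitochondrial deacetylase, had overlapping levels in all groups. Its level was 37.8 to 41.0 FPKM in CON, 33.7 to 41.7 FPKM in PQQ-L and 32.3 to 45.1 FPKM in PQQ-H. The log2FC was -0.03 at the low dose (95% interval -0.27 to 0.21, limma adjusted p = 0.861) and 0.05 at the high dose (95% interval -0.20 to 0.29, limma adjusted p = 0.915). These were 0.0051 and 0.18 without the striatum-rich libraries, and among those 4 alone the value at the high dose was -0.07. Exons of Sirt3 share 418 bases with Ric8a and 342 bases with Psmd13 on the opposite strand in GENCODE M21. Its counts there may be affected if counting ignored strand, and how such reads were handled is not given in the sources used here.

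Sirt4, a mitochondrial lipoamidase and ADP-ribosyltransferase, had the narrowest range of the family. It ran from 2.86 to 3.06 FPKM in CON, 2.88 to 3.27 FPKM in PQQ-L and 2.87 to 3.21 FPKM in PQQ-H. The log2FC was 0.02 in both comparisons with CON, with 95% intervals of -0.16 to 0.20 for PQQ-L and -0.17 to 0.21 for PQQ-H (limma adjusted p = 0.870 and 0.950). It was -0.03 and -0.04 without the striatum-rich libraries.

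Sirt5, which removes succinyl, malonyl and glutaryl groups, was 2.28, 2.35 and 2.31 FPKM in CON 1 to 3 and 2.50, 2.43, 2.58 and 2.84 FPKM in PQQ-H 1 to 4. The 4 PQQ-H libraries therefore lay above the 3 CON libraries, whereas PQQ-L, at 2.06 to 2.64 FPKM, overlapped both. The log2FC of Sirt5 at the high dose was 0.15 (95% interval -0.09 to 0.40, limma adjusted p = 0.732). Without the striatum-rich libraries it was 0.19, and among those 4 libraries it was 0.10. At the low dose it was 0.04 (95% interval -0.20 to 0.27, limma adjusted p = 0.826), and 0.01 without them.

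Sirt6, a chromatin-bound deacetylase that acts on histone H3, ranged from 3.66 to 4.34 FPKM in CON, 3.67 to 4.27 FPKM in PQQ-L and 3.95 to 4.63 FPKM in PQQ-H. Its log2FC was 0.06 at the low dose (limma adjusted p = 0.697) and 0.14 at the high dose (95% interval -0.08 to 0.35, limma adjusted p = 0.728). These differences were -0.10 and 0.08 without the striatum-rich libraries.

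Sirt7, the nucleolar member tied to ribosomal RNA synthesis, was 14.3, 9.88 and 12.3 FPKM in CON 1 to 3, a range that holds every treated library. It ranged from 10.3 to 13.0 FPKM in PQQ-L and from 11.1 to 14.0 FPKM in PQQ-H. The log2FC was -0.04 at the low dose (limma adjusted p = 0.855) and 0.08 at the high dose (limma adjusted p = 0.879). Without the striatum-rich libraries, which left CON 2 alone in its group, the log2FC was 0.25 and 0.27. Sirt7 shares 124 exonic bases with Mafg on the same strand in GENCODE M21, and how such reads were counted is not given in the sources used here.

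Counted over the family, 0 of 7 sirtuins passed a limma adjusted p of 0.05 in PQQ-L vs. CON, where 0.587% of all genes passed. It was 0 of 7 at the high dose, where 1.09% of all genes passed, and between the doses 0 of 7 where 0% passed. At an unadjusted p of 0.05, 2 sirtuins (Sirt1 and Sirt2) passed at the low dose against 20.5% of all genes, 0 at the high dose against 9.73%, and 0 between the doses against 8.15%. At the low dose, 1 of 7 had libraries that did not overlap between groups (Sirt1, higher), where 10.6% of all genes did so and 2.96% were higher. It was also 1 of 7 at the high dose (Sirt5, higher), where 7.08% of all genes did so and 1.36% were higher.

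The median log2FC of the 7 members was 0.02 at the low dose beside -0.03 over all genes tested. It was 0.08 beside -0.03 at the high dose, and 0.08 beside -0.02 between the doses. Leaving out CON 2, the one CON library that was not striatum-rich, brought Sirt1 (log2FC 0.39, limma adjusted p = 0.0330) and Sirt2 (log2FC -0.59, limma adjusted p = 0.0412) past the threshold at the low dose. In that fit 23.4% of all genes passed. Without the 4 striatum-rich libraries 0 of 7 sirtuins passed in any comparison, where 0.00725% of all genes passed at the low dose, 0.0435% at the high dose and 0% between the doses. Among the 4 alone, 0 of 7 passed at the high dose, where 0.254% of all genes did.

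**Figure D3:**
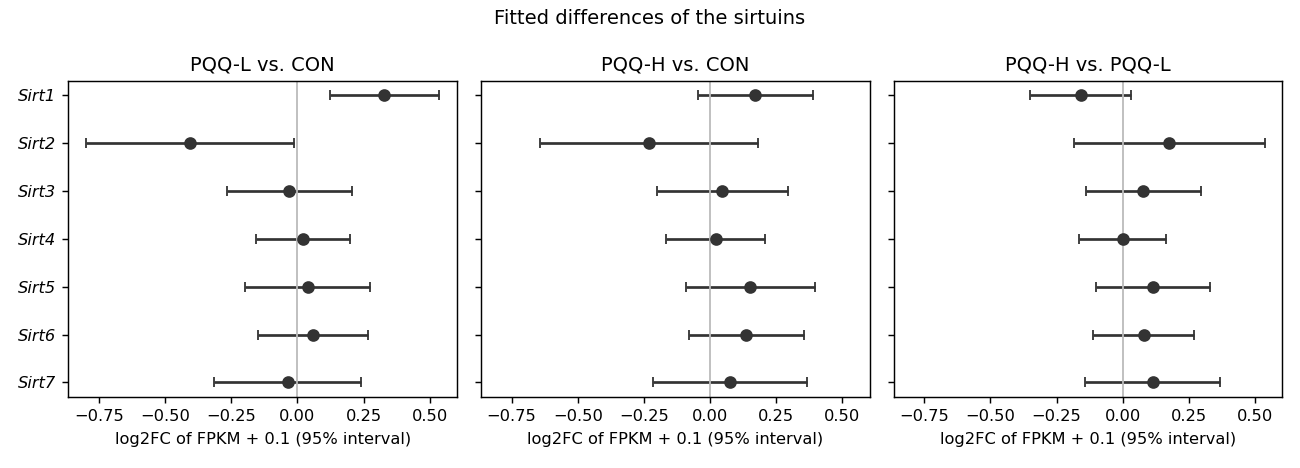
Fitted log2FC of log2(FPKM + 0.1) for the 7 sirtuins (points) with 95% intervals (bars) from the fit of 12 libraries, with 1 panel per comparison. At the low dose the intervals of Sirt1 (0.12 to 0.54) and Sirt2 (-0.80 to -0.01) do not include 0, although their adjusted p-values are 0.173 and 0.240, and the other 19 intervals all include 0.

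Ucp2, the uncoupling protein that the study examined beside SIRT1, was 21.6 to 37.9 FPKM in CON, 8.37 to 14.4 FPKM in PQQ-L and 8.96 to 19.7 FPKM in PQQ-H. Its log2FC was -1.39 at the low dose (limma adjusted p = 0.0357) and -1.29 at the high dose (limma adjusted p = 0.0484). In the fit of all 12 libraries Ucp2 therefore passed in both. With the choroid plexus markers held constant, and within the libraries whose names open with L, 0 of 13796 genes passed in either comparison. Ucp2 therefore did not pass under those settings. The choroid plexus signal, higher in every CON library, cannot be told apart from treatment here either. In the 4 striatum-rich libraries Ucp2 was 11.5 to 37.9 FPKM and in the other 8 it was 8.37 to 21.6 FPKM. Because CON stood apart from both treated groups, a correlation over all 12 libraries joins separate clusters, and the relation was examined within subsets. Within the 9 PQQ-treated libraries, Sirt1 and Ucp2 gave r = -0.294 (exact permutation p = 0.457) and rho = -0.20 (exact permutation p = 0.613). Within the 8 libraries that were not striatum-rich, r was -0.469 (exact permutation p = 0.245) and rho was -0.333 (exact permutation p = 0.428). Sirt3 and the mean log2 level of 60 nuclear genes of oxidative phosphorylation (OXPHOS) gave r = 0.425 (permutation p = 0.168, 0.168 adjusted over the 3 relations) and rho = 0.315 (permutation p = 0.320, 0.320 adjusted) over 12 libraries. Without the 2 libraries farthest from the median OXPHOS level, r was 0.253 (permutation p = 0.485).

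The members did not vary as one. As a description over 12 libraries, which share their tissue content, the log2 levels of Sirt1 and Sirt2 had r = -0.762, those of Sirt2 and Sirt6 r = -0.624, and those of Sirt2 and Sirt7 r = 0.492. The genes most like Sirt2 over the 12 libraries were Stim1 (r = 0.994), Tmbim1 (r = 0.990) and Chchd10 (r = 0.990). Of the oligodendrocyte markers, Cnp ranked 18 and Mog 22 by likeness to Sirt2 among all genes tested, and the other 10 ranked from 134 (Mobp) to 1703 (Ugt8a, r = 0.810). The genes most like Sirt1 were Naa30 (r = 0.947), G2e3 (r = 0.945) and Cbfb (r = 0.944), and those most like Sirt3 were Tmem160 (r = 0.923), Drap1 (r = 0.917) and Cops9 (r = 0.916). Sirt4 was most like Slc38a6 (r = 0.815), Zbtb11os1 (r = 0.813) and Gm34758 (r = 0.813), and Sirt5 most like Eif5 (r = 0.859), 4930453N24Rik (r = 0.846) and Gm39520 (r = 0.845). Sirt6 was most like Cstpp1 (r = 0.903), D6Wsu163e (r = 0.889) and Ppp3cc (r = 0.885), and Sirt7 most like Il34 (r = 0.923), Gmeb2 (r = 0.916) and Akap8l (r = 0.901).

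Genes that supply or use NAD+, the cosubstrate of the family, were examined next. None of the 12 tested genes of NAD+ synthesis passed the adjusted p in any comparison, and the median log2FC was 0.13 at the low dose and 0.04 at the high dose, or 0.0010 and 0.03 without the striatum-rich libraries. Nampt, the rate-limiting enzyme of NAD+ salvage, had a log2FC of 0.29 and 0.19 at these doses (limma adjusted p = 0.282 and 0.788, chosen after its values were seen). The widest values belonged to tryptophan enzymes, with Ido1 at -3.09 (SE 1.83, limma adjusted p = 0.293) and Tdo2 at 2.39 (SE 1.02, limma adjusted p = 0.237) at the low dose. Ido1 was 6.52 ± 7.62 FPKM in CON (SD, n = 3), 0.191 ± 0.191 FPKM in PQQ-L (SD, n = 5) and 4.43 ± 5.35 FPKM in PQQ-H (SD, n = 4), a spread wider than its means. These genes had a log2FC of -1.07 (Ido1) and 1.69 (Tdo2) at the high dose, and in PQQ-H vs. PQQ-L of 2.02 and -0.69.

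Of the 7 tested NAD+ consumers other than sirtuins, 0 passed the adjusted p in any comparison, and the median log2FC was 0.49 at the low dose and 0.18 at the high dose. Without the striatum-rich libraries the median at the low dose was -0.01, with 3 of the 7 above 0, and at the high dose it was 0.14. Cd38, a major NAD+ glycohydrolase, was 1.05 ± 0.494 FPKM in CON (SD, n = 3) and 1.83 ± 0.605 FPKM in PQQ-L (SD, n = 5), a log2FC of 0.78 (limma adjusted p = 0.247), and its log2FC in PQQ-H was 0.65 (limma adjusted p = 0.645). Parp3, a DNA-damage-responsive ADP-ribosyltransferase, had a log2FC of -0.96 in PQQ-L (limma adjusted p = 0.227) and -0.72 in PQQ-H (limma adjusted p = 0.588). In PQQ-H vs. PQQ-L the widest values were those of Tnks (-0.38) and Sarm1 (-0.29).

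Regulators of the sirtuins likewise gave 0 of 12 genes past the adjusted p in any comparison, with median log2FC of 0.07 at the low dose and 0.03 at the high dose (0.01 and -0.08 without the striatum-rich libraries). The widest values at the low dose were those of E2f1, a transcription factor (log2FC -0.38, limma adjusted p = 0.465), and Setd7, a lysine methyltransferase (0.34, limma adjusted p = 0.247). At the high dose they were those of E2f1 (-0.51, limma adjusted p = 0.726) and Hic1, a repressor of Sirt1 transcription (-0.45, limma adjusted p = 0.583). Prkaa2, a catalytic subunit of AMPK, was 4.50 ± 0.492 FPKM in PQQ-L (SD, n = 5) and 3.20 ± 0.507 FPKM in PQQ-H (SD, n = 4), a log2FC of -0.49 in PQQ-H vs. PQQ-L (limma adjusted p = 0.580).

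Among 27 tested nuclear substrates of SIRT1, 0 passed the adjusted p in any comparison, and 10 had a log2FC above 0 and 17 below at the low dose, with a median of -0.10. There were 7 above and 20 below at the high dose, also with a median of -0.10. Without the striatum-rich libraries 14 lay above 0 and 13 below at the low dose (median 0.0069), and 11 above and 16 below at the high dose (median -0.09). Per2, a clock gene, was 4.19 ± 0.985 FPKM in CON (SD, n = 3) and 5.80 ± 0.349 FPKM in PQQ-L (SD, n = 5), a log2FC of 0.48 (limma adjusted p = 0.190). Srebf1, a regulator of lipid synthesis, was 18.3 ± 2.64 FPKM in CON and 12.3 ± 1.42 FPKM in PQQ-L, a log2FC of -0.56 (limma adjusted p = 0.191), and -0.44 in PQQ-H (limma adjusted p = 0.457). Ppargc1a, the coactivator of mitochondrial biogenesis, had a log2FC of 0.26 at the low dose (limma adjusted p = 0.305), -0.06 at the high dose (limma adjusted p = 0.927) and -0.32 in PQQ-H vs. PQQ-L (limma adjusted p = 0.580).

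The 6 tested substrates of SIRT2 gave 0 genes past the adjusted p, with a median log2FC of -0.21 at the low dose and -0.16 at the high dose (-0.09 and -0.16 without the striatum-rich libraries). The widest were G6pdx, the entry enzyme of the pentose phosphate pathway, and Pard3, a polarity protein of myelinating cells, at -0.54 each at the low dose (limma adjusted p = 0.233 and 0.265). Their values at the high dose were -0.31 and -0.28.

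Of 23 tested substrates of the mitochondrial sirtuins, 0 passed the adjusted p, while 18 lay below 0 and 5 above at the low dose (median -0.11), and 17 below and 6 above at the high dose (median -0.08). With the striatum-rich libraries left out, 20 lay below 0 at the low dose (median -0.11) and 19 at the high dose (median -0.13). Aldh2, an aldehyde dehydrogenase, was 41.1 ± 9.47 FPKM in CON (SD, n = 3), 24.8 ± 2.55 FPKM in PQQ-L (SD, n = 5) and 29.4 ± 6.40 FPKM in PQQ-H (SD, n = 4). Its log2FC was -0.70 in PQQ-L (limma adjusted p = 0.134) and -0.48 in PQQ-H (limma adjusted p = 0.425). Idh2, the mitochondrial source of NADPH that SIRT3 deacetylates, was 10.5 ± 1.48 FPKM in CON and 7.35 ± 0.565 FPKM in PQQ-L, a log2FC of -0.51 (limma adjusted p = 0.142). Mccc1, of leucine breakdown, had a log2FC of -0.48 at the high dose (limma adjusted p = 0.409). Without CON 2, 7 of the 23 passed at the low dose, 6 of them below 0, in the fit where 23.4% of all genes passed. Without PQQ-H 2, Acadvl, of fatty acid oxidation, passed below 0 at both doses, where 0.732% and 1.48% of all genes passed (chosen after its values were seen).

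The 60 nuclear OXPHOS genes, many of whose products are SIRT3 targets, gave 0 past the adjusted p in any comparison, although 60 of 60 had a log2FC below 0 at the low dose (median -0.23 beside -0.03 over all genes). Of the 60, 50 lay below 0 at the high dose (median -0.08). Ndufs6, a subunit of complex I, was 130.4 ± 17.6 FPKM in CON (SD, n = 3) and 94.0 ± 7.56 FPKM in PQQ-L (SD, n = 5), a log2FC of -0.47 (limma adjusted p = 0.157). Ndufa1, also of complex I, had a log2FC of -0.45 (limma adjusted p = 0.224), and Sdhc, of complex II, had -0.23 at the high dose (limma adjusted p = 0.565). Without the 4 striatum-rich libraries 45 of the 60 lay below 0 at the low dose (median -0.07) and 17 of 60 at the high dose (median 0.05). In PQQ-H vs. PQQ-L 60 of 60 lay above 0 (median 0.13 beside -0.02 over all genes), and 58 of 60 did so without those libraries (median 0.11). The position of these values relative to 0 rests on the scaling. TPM moved the median of all genes in this comparison to -0.11, and median-of-ratios scaling moved it to 0.0046. Both scalings multiply all genes of a library by the same factor. They therefore shift the list and the median of all genes nearly alike. Without CON 2, 29 of the 60 passed the adjusted p below 0 at the low dose, in the fit where 23.4% of all genes passed.

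Partners of SIRT6 and SIRT7 in chromatin and nucleolus gave 0 of 10 past the adjusted p, with median log2FC of -0.13 at the low dose and -0.0099 at the high dose (-0.06 and -0.01 without the striatum-rich libraries). Rbbp8, a DNA end resection factor that SIRT6 deacetylates, had -0.47 in PQQ-L (limma adjusted p = 0.241) and -0.67 in PQQ-H (limma adjusted p = 0.295), and Elk4, through which SIRT7 is recruited to promoters, had 0.51 in PQQ-L (limma adjusted p = 0.276). Polr1a, the large subunit of RNA polymerase I, had -0.26 in PQQ-H (limma adjusted p = 0.426).

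The other enzymes that write or remove acetyl groups gave no gene past the test either. Of the 11 zinc-dependent deacetylases, 0 passed in any comparison, with median log2FC of 0.02 at the low dose and -0.09 at the high dose (-0.0027 and -0.05 without the striatum-rich libraries). Hdac9 was at 0.75 (limma adjusted p = 0.240) and Hdac4 at 0.27 (limma adjusted p = 0.259) at the low dose, and at -0.70 and -0.38 in PQQ-H vs. PQQ-L (limma adjusted p = 0.580 for both). At the high dose the widest were Hdac10 (-0.17) and Hdac5 (-0.15). Of the 9 lysine acetyltransferases 0 passed, with median log2FC of -0.03 and 0.01 (-0.10 and -0.14 without the striatum-rich libraries), and Kat2b was at -0.43 at the low dose (limma adjusted p = 0.240) and -0.38 at the high dose (limma adjusted p = 0.581). Kat6a was at 0.29 at the low dose (limma adjusted p = 0.293), and Kat5 at -0.13 at the high dose (limma adjusted p = 0.687).

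**Figure D4:**
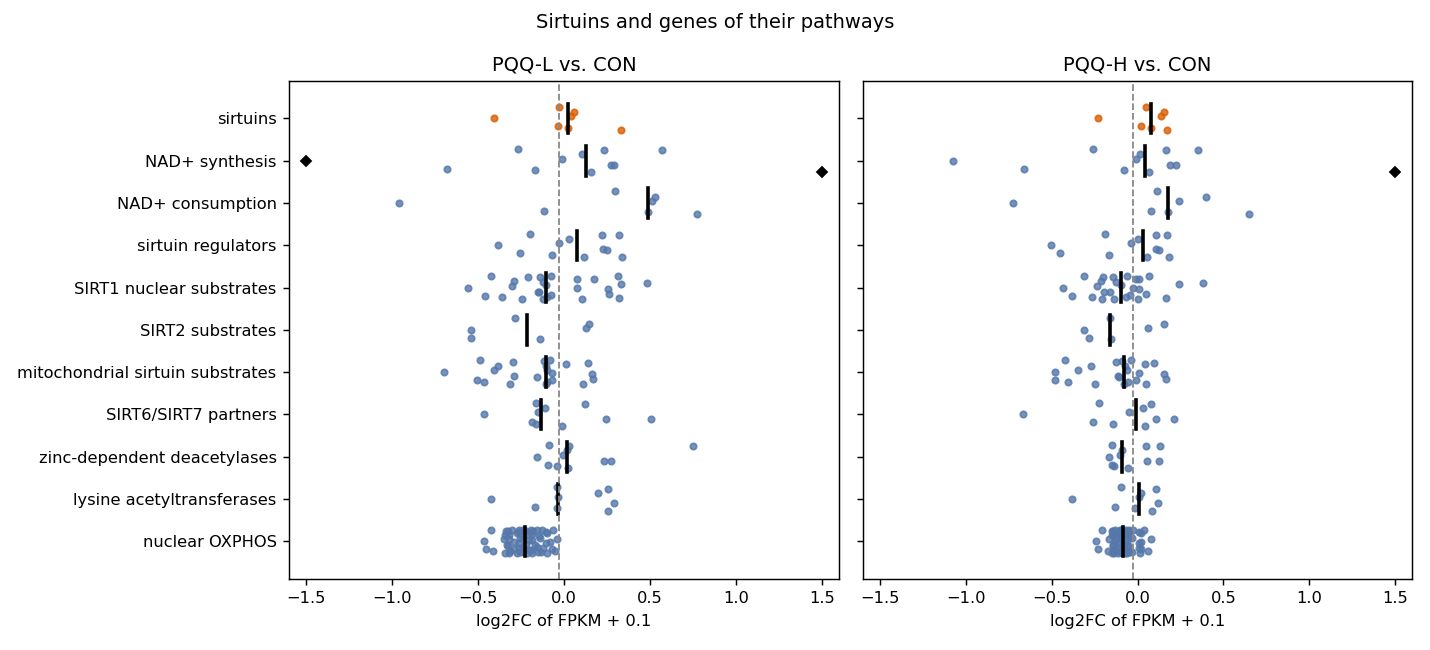
Log2FC of each sirtuin (orange) and of each tested gene of 10 pathway lists (blue) at the low and the high dose, with list medians as black bars and the median of all genes as a dashed line; black diamonds at the edge stand for genes beyond 1.5 on either side. The 60 OXPHOS genes all lie left of 0 at the low dose (median -0.23), whereas the sirtuins lie on both sides (4 above 0 and 3 below).

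The fitted differences of Sirt1 kept their direction under every setting tried, while those of the members near 0 did not. At the low dose the log2FC of Sirt1 ran from 0.21 to 0.45 over 18 other settings and from 0.27 to 0.39 as single libraries were left out. Sirt2 stayed below 0 in that comparison but ran from -0.44 to -0.02 over the 18 other settings and from -0.59 to -0.28 as single libraries were left out, the value closest to 0 being that with the choroid plexus markers held constant. At the high dose Sirt2 ran from -0.31 to 0.26 over 19 other settings and from -0.42 to -0.09 as single libraries were left out.

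**Figure D5:**
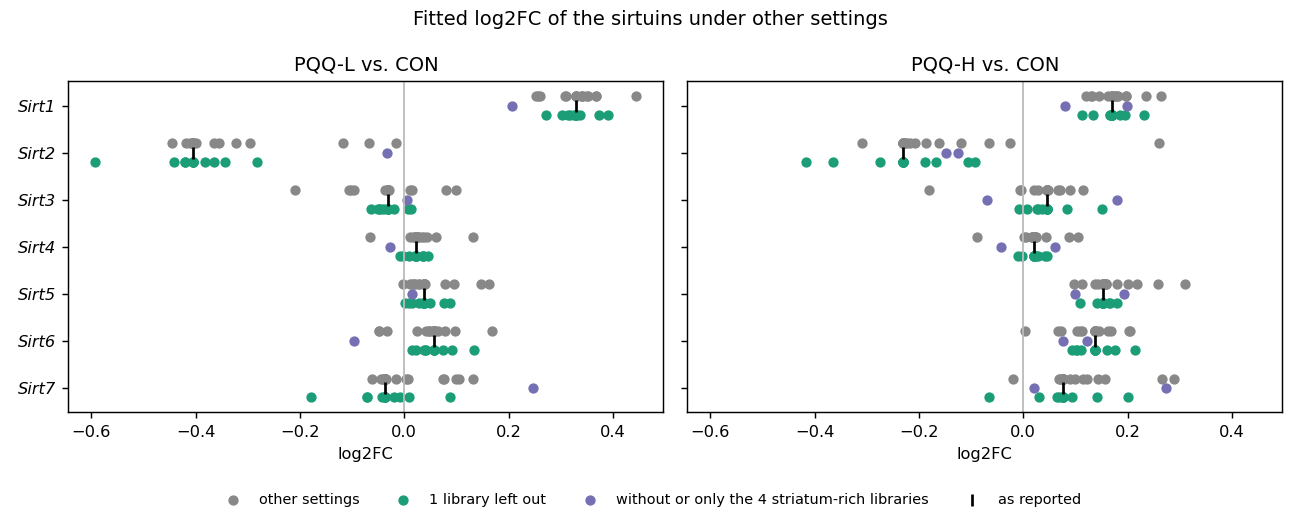
Log2FC of the 7 sirtuins at the low and the high dose as reported (black bar), under other settings (grey), with 1 library left out (green) and without or only with the 4 striatum-rich libraries (purple). Sirt1 lies right of 0 at every point in both comparisons, and Sirt2 at the low dose moves from -0.41 to -0.03 once the striatum-rich libraries are left out.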

How the data were processed

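The 12 RNA-seq libraries, labelled as hippocampus of aged mice, were analyzed. RNA was isolated by the authors (TRIzol) and sequenced on a NovaSeq instrument, and after trimming by fastp they mapped the reads with HISAT2 (mm39, per the submitters' processing notes), counted them with HTSeq-count and deposited FPKM per gene. Their strand setting, annotation and program versions are not given in the sources used here, and their DESeq2 test was not repeated. Library totals were obtained from the FPKM, of which 100% of 25563 genes above 0 in at least 2 libraries gave whole reads (tolerance 0.02 reads).

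The 13796 genes whose FPKM averaged 0.5 or more were fitted together with limma 3.58.1 (R 4.3.3, moderated, with trend) on log2(FPKM + 0.1) over all 12 libraries. P-values were adjusted over all genes by Benjamini-Hochberg, with calls at 0.05, and folds on this scale understate changes of low genes. Relations between 2 measures used two-sided permutation tests with 100000 resamples, or exact ones below 10 libraries. The steps were tested on simulated data. Other steps ran in Python 3.11.15 (pandas 2.3.3, scipy 1.17.1, numpy 2.4.6) and figures in matplotlib 3.10.9. Positions came from GENCODE M21 and promoters from RefSeq GRCm38.p6, a build other than mm39, so they were used for annotation alone.

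The members and gene lists were chosen with earlier results of these data known. Named genes are the members, the 3 genes most like each, Ucp2, genes sharing exons with a member, and the 2 genes of each list with the largest |log2FC| in each comparison, beside Nampt, Acadvl and the 4 oligodendrocyte markers ranked against Sirt2, which were chosen after their values were seen. Of the lists, 15 genes fell below the filter and were not tested. Alternatives were other pseudocounts (1 and 0.01), filters (none, or 1 FPKM), scalings (median of ratios, TPM, quantile), libraries, variance models, marker scores as covariates, voom on the recovered reads (at least 10 on average), a replicate block, and each library left out. Fits with and without the 4 striatum-rich libraries (over 1000 FPKM of striatal markers) and relations without them or within the PQQ-treated libraries were added after seeing the data.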

Additional observations from a re-analysis of the deposited data

How the results depend on the processing

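None of the 7 sirtuins passed the adjusted p in any of the 3 comparisons under the settings run, except that leaving out single libraries gave 0 to 2 in PQQ-L vs. CON, the 2 (Sirt1 and Sirt2) without CON 2. With the choroid plexus held constant, and within the names opening with L, 0 of all 13796 genes passed in any comparison. Those settings therefore could not tell the sirtuins from other genes. With single libraries left out, the log2FC in PQQ-L vs. CON ran from 0.27 to 0.39 for Sirt1, -0.59 to -0.28 for Sirt2, -0.063 to 0.014 for Sirt3, -0.0080 to 0.046 for Sirt4 and -0.18 to 0.088 for Sirt7. In PQQ-H vs. CON it ran from -0.0089 to 0.15 for Sirt3, -0.0097 to 0.045 for Sirt4 and -0.066 to 0.20 for Sirt7, and in PQQ-H vs. PQQ-L from -0.031 to 0.029 for Sirt4. Without CON 2, the lists gave calls in PQQ-L vs. CON as well, where 23.4% of all genes passed: 2 of 12 genes of NAD+ synthesis, 3 of 7 NAD+ consumers, 5 of 12 sirtuin regulators, 6 of 27 SIRT1 substrates, 1 of 6 SIRT2 substrates, 7 of 23 mitochondrial substrates, 1 of 11 zinc-dependent deacetylases, 1 of 9 acetyltransferases, 29 of 60 OXPHOS genes and 0 of 10 SIRT6 and SIRT7 partners.

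The sign changed, always without passing the test, as follows, and the cause was not tested. In PQQ-L vs. CON, Sirt3 was at 0.010 (median of ratios), 0.080 (TPM), 0.016 (quantile), 0.099 (names opening with L) and 0.0051 (without the striatum-rich libraries). Sirt4 was at -0.066 (choroid plexus held constant) and -0.026 (without the striatum-rich libraries), and Sirt5 at -0.0029 (names opening with L). Sirt6 was at -0.048 with the choroid plexus or the striatum held constant, -0.034 with oligodendrocytes held constant and -0.097 without the striatum-rich libraries. Sirt7 was at 0.0036 (median of ratios), 0.073 (TPM), 0.099 (names opening with L), 0.13, 0.10 and 0.077 (choroid plexus, striatum and oligodendrocytes held constant) and 0.25 (without the striatum-rich libraries). In PQQ-H vs. CON, holding the choroid plexus constant put Sirt2 at 0.26, Sirt3 at -0.18 and Sirt4 at -0.089. Sirt3 was also at -0.0043 with oligodendrocytes held constant and -0.070 among the striatum-rich libraries, Sirt4 at -0.043 without those libraries and Sirt7 at -0.019 with array quality weights. In PQQ-H vs. PQQ-L, Sirt2 was at -0.051 (striatum held constant) and -0.093 (without the striatum-rich libraries), Sirt3 at -0.010 (TPM) and -0.070 (names opening with L), Sirt4 at 0.025 (median of ratios), 0.061 (quantile) and 0.0064 (striatum held constant), and Sirt6 at -0.0057 (TPM). TPM moved the median of all genes in PQQ-L vs. CON from -0.03 to 0.08, and in PQQ-H vs. PQQ-L from -0.02 to -0.11. Over all 12 libraries Sirt1 and Ucp2 gave r = -0.747 (permutation p = 0.00464, 0.00696 adjusted over the 3 relations) and rho = -0.580 (permutation p = 0.0523), values that join CON, which lay higher in Ucp2, with the treated libraries. It was -0.825 with median-of-ratios scaling (permutation p = 0.000700), -0.829 within the 7 names opening with L and -0.80 to -0.65 as single libraries were left out. It did not pass without CON 1 and CON 3 (r = -0.431), on deviations from the group means (-0.390), without the striatum-rich libraries (-0.469) or within the PQQ-treated libraries (-0.294).

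Libraries that share a replicate number had deviations correlated between -0.619 and 0.717, so the numbers were not taken to pair the mice. With the number as a replicate block (5 residual degrees of freedom), 0 sirtuins passed, Sirt1 in PQQ-L vs. CON was at 0.31 and Sirt2 at -0.32, and the sign changed for Sirt7 in PQQ-L vs. CON (0.0064) and Sirt3 in PQQ-H vs. CON (-0.0054). With 3 CON libraries, 2 of them striatum-rich, treatment and tissue content cannot be told apart for differences of the size fitted for Sirt1 and Sirt2, and the 95% intervals bound what each comparison could show.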
